A study of Mus musculus with 32 samples.

Results

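Day 12 of the differentiation series was the first time point after puromycin selection of Cor.At cardiomyocytes. Of the 32 array records of the series, 6 were used for it. The records comprised 2 Affymetrix arrays with RMA values, the same 2 arrays with VSN values and 2 Febit arrays with VSN values, and the 2 raw Febit columns of day 12 were read beside them. The records were chosen by their time label, day 12. The Febit records of that day that are not VSN-normalized were left out of the 6 and are taken up below. No other day was compared with day 12. All cells came from 1 transgenic clone, aPIG 44, of the mouse embryonic stem (ES) cell line D3. The clone carries the alpha-MHC-Pac-IRES-EGFP vector, in which the cardiac alpha-myosin heavy chain promoter drives puromycin resistance and green fluorescent protein, so cells survive selection only where that promoter is active. ES cells grown on mouse embryonic fibroblasts formed embryoid bodies on a shaker for 48 h and in spinner flasks for a further 7 days, puromycin was added at day 9, and the cells were dissociated at day 12 and kept on fibronectin for 6 h before total RNA was taken. Cultures a and b are the biological duplicates of this day. Both array types were given RNA of the same preparations, as the study's text states. The sources used here do not say whether a letter marks the same preparation on both.

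A mature miRNA is a short RNA that guides the silencing complex to messenger RNAs, mainly through its seed, bases 2 to 8 from the 5′ end. miRNAs that share a seed form a family and can bind many of the same targets. In heart muscle miR-1 and the miR-133 family are the classic abundant miRNAs, and miR-208a, miR-208b and miR-499 are encoded within myosin heavy chain genes. In mouse ES cells the miR-290 cluster dominates, and let-7 rises as cells differentiate.

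Affymetrix arrays carry 609 of the mouse miRNAs analysed and Febit arrays 710, and matching by name gave 608 miRNAs on both. A total of 102 were on the Febit array only, and miR-699 was on the Affymetrix array only. On Affymetrix the RNA is labelled at its end before hybridization, whereas on Febit the hybridized miRNA itself is extended on the chip. Signal depends on the probe as well as on the amount of RNA, so every rank below is a rank of signal and not of molecules. Each miRNA is given a percentile within its array, from 0 for the dimmest to 100 for the brightest of the 608. The number of arrays, 2 per platform, limits the precision.

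One label needs to be stated before the results. Febit values were also deposited in a second form that is not VSN-normalized. In that form the record titled day 12 a ranked the 710 miRNAs exactly as the raw column of day 19 b (Spearman correlation 1) and not as the raw column of day 12 a (0.198), whereas day 12 b matched its own column (1). The VSN record of day 12 a matched its own raw column (1). The titles of the VSN and raw values were followed, and calls of the platform test are given beside those with the other title. Culture b does not depend on this choice.

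The mature sequences were taken from RefSeq (GRCm38.p6), in which 388 of the 608 miRNAs were matched, and the seed is in capitals. The miRNAs listed first had a mean percentile above 90 on both platforms. Some share a seed: miR-103 with miR-107, miR-125a-5p with miR-125b-5p and miR-351, and miR-16 with miR-15b. Not all stood over 2 times the Febit array median in both cultures: miR-107 had 1.98 (a) and 1.96 (b) times it, and miR-351 1.90 (a) and 1.85 (b). miR-15b and miR-125b-5p did not pass it in both cultures either.
miR-24: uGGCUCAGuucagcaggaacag
miR-103: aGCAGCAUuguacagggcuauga
miR-107: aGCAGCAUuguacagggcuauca
miR-26a: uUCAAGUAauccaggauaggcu
miR-22: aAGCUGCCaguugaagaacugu
miR-125a-5p: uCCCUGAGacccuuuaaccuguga
miR-125b-5p: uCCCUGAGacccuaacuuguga
miR-351: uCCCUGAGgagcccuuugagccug
miR-16: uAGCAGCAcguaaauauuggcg
miR-15b: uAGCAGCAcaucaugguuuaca

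The next set was bright on Affymetrix and below the median on Febit, apart from let-7e, which is shown because it shares its seed with let-7a and was the brightest of the let-7 family on Affymetrix.
let-7a: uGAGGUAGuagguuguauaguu
let-7e: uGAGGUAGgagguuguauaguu
miR-127: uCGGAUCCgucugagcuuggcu
miR-361: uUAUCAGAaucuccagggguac
miR-382: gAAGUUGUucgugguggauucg
miR-652: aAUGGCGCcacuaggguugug

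The last set ranked higher on Febit, and miR-208b is shown beside miR-208a because both have 1 seed. Of these, miR-574-5p and miR-1187 consist largely of alternating U and G, and miR-467f and miR-466i of alternating A and C.
miR-208a: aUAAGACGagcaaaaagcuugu
miR-208b: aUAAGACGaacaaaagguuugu
miR-214: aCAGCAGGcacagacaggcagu
miR-574-5p: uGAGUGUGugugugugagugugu
miR-1187: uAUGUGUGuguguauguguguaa
miR-467f: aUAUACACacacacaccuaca
miR-466i: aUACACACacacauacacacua

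In this assembly miR-208a lies at chr14:54949072-54949093 on the minus strand, within the gene of alpha-myosin heavy chain, whose promoter also drives the selection cassette. miR-127 (chr12:109592888-109592909, plus strand) and miR-382 (chr12:109733781-109733802, plus strand) lie in the imprinted Dlk1-Dio3 region.

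The platforms had some of their brightest miRNAs in common. Of the 50 miRNAs of highest mean percentile on each platform, 22 were the same, which is 44% of each list. These included the smooth muscle pair miR-143 and miR-145, the muscle miRNAs miR-1 and miR-133a, miR-23a, miR-23b and miR-24, which are processed from clustered precursors, miR-103 and miR-107, and miR-16 and miR-503. The others were miR-22, miR-26a, miR-30c, miR-99b, miR-125a-5p, miR-125b-5p, miR-130a, miR-210, miR-298, miR-322* and miR-709. Of the 20 brightest on each platform 7 were shared.

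Percentiles of the 608 were compared between platforms with limma, in which the VSN arrays of the other days supplied only the spread. Of the 608, 93 were called higher on Affymetrix (15.3% of those tested) and 92 higher on Febit (15.1%) at an adjusted p under 0.05, together 185 miRNAs or 30.4%. A miRNA is said to be called where it passed this test. Percentiles sum to the same total on each array, so the differences over all miRNAs balance to 0, although the counts of calls need not. The calls rest on the title of 1 Febit array: with the titles of the non-VSN values for day 12 a and day 19 b, 12 miRNAs were called, 8 higher on Affymetrix and 4 higher on Febit, and 9 of these were among the 185. Leaving out culture a gave 99 calls and leaving out culture b 94.

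miR-709 was the brightest of all on Affymetrix, with VSN values of 12.75 in culture a and 13.18 in culture b on the log2 scale. On Febit its raw signal, the median of 8 features, was 23274 in a and 3857 in b. It was thus far above the array medians of 968 and 984 in both cultures, but 6.03-fold brighter in a, while Affymetrix gave a value lower in a by 0.43 on the log2 scale. The 8 features ranged from 17156 to 30623 in a and from 2873 to 4881 in b. They lie on 1 array per culture, so their range is a spread within an array and not between cultures.

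miR-143, which with miR-145 is known from smooth muscle and the early heart, ranked near the top on all 4 arrays. Its Affymetrix values were 11.63 (a) and 11.45 (b), and its raw Febit signals were 11907 (a) and 11019 (b). miR-145 had 12.10 (a) and 11.66 (b) on Affymetrix, where only miR-709 had a higher mean percentile. On Febit it had 1965 (a) and 2845 (b), so it was bright on both platforms and dimmer than miR-143 on Febit.

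miR-24, processed from the same clusters as miR-23 and miR-27, had Affymetrix values of 11.65 (a) and 11.27 (b) and raw Febit signals of 7570 (a) and 3489 (b). All 5 members of its list were above percentile 75 on both platforms in both cultures, with mean percentiles from 86.9 to 99.4 on Affymetrix and from 90.4 to 98.4 on Febit, and none was called different. miR-103, which lies in pantothenate kinase genes, had 11.33 (a) and 11.21 (b) on Affymetrix and 3593 (a) and 3949 (b) on Febit. Its seed relative miR-107 had 11.13 (a) and 10.98 (b) and, on Febit, 1920.5 (a) and 1929 (b). The pair stood close together on Affymetrix and apart on Febit, where miR-107 was dimmer in both cultures.

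**Figure D1:**
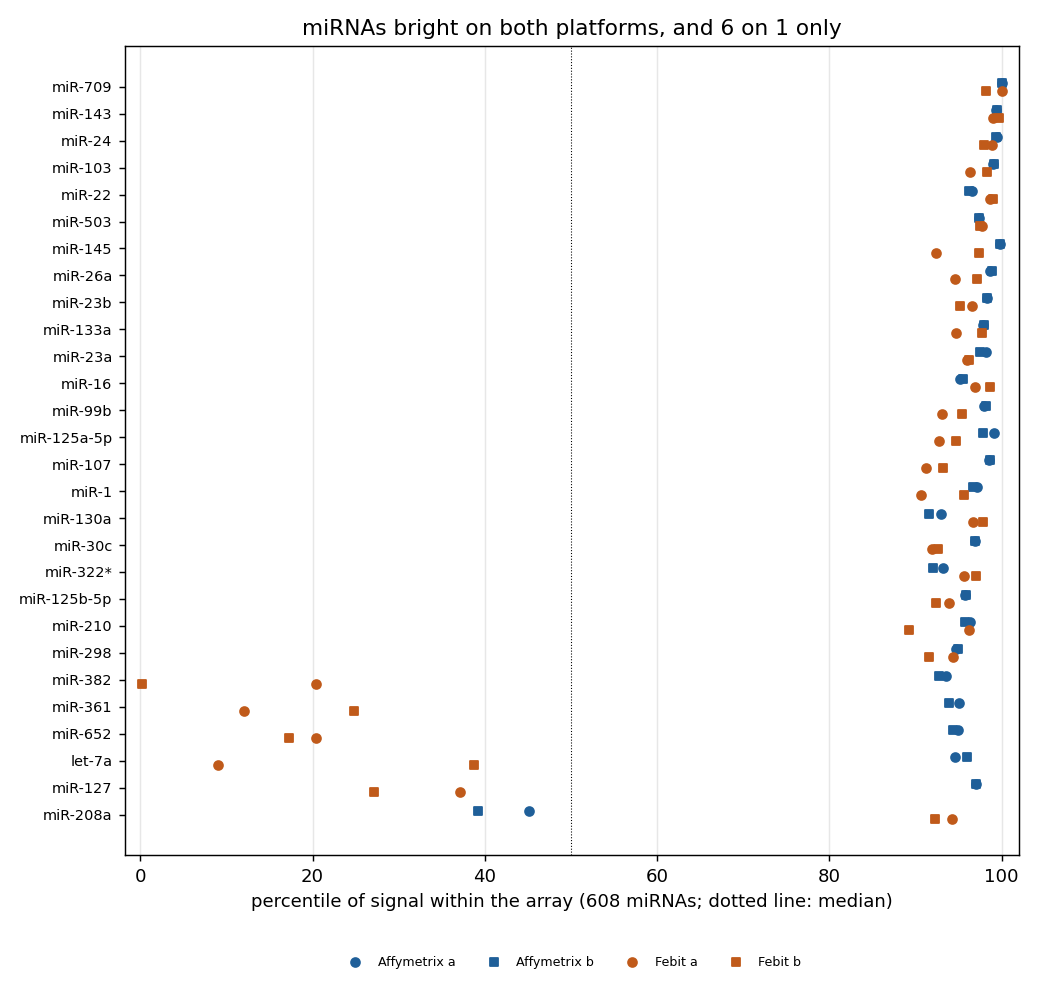
Percentile of signal within the array (x axis, 0 to 100, over the 608 shared miRNAs) for the 22 miRNAs among the 50 brightest on both platforms and 6 miRNAs bright on 1 platform only. Blue points are Affymetrix and orange points Febit, with circles for culture a and squares for culture b. The 22 shared miRNAs lie at the right edge on all 4 arrays, whereas miR-382, miR-361, miR-652, let-7a and miR-127 lie left of the median on Febit and miR-208a left of it on Affymetrix.

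The muscle miRNAs bear on the label of the cells. miR-1, which restrains proliferation in heart muscle, had Affymetrix values of 10.25 (a) and 9.60 (b) and raw Febit signals of 1893 (a) and 2141 (b), a mean percentile of 97.0 and of 93.1. miR-133a had 10.85 (a) and 10.37 (b) on Affymetrix and 2933 (a) and 3045 (b) on Febit. Both were above percentile 90 on all 4 arrays, and neither was called different between platforms. On Febit miR-1 stood at 1.96 (a) and 2.18 (b) times the array median. Of the 8 muscle miRNAs, miR-133a alone had a raw Febit signal over 2 times that median in both cultures.

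miR-133b, of the same family as miR-133a, had 9.96 (a) and 9.51 (b) on Affymetrix, but only 992 (a) and 1064 (b) on Febit, close to the array median. The difference of 19.9 percentile points was not called (adjusted p = 0.101). The passenger strand miR-133a* had 5.44 (a) and 4.68 (b) on Affymetrix and 896 (a) and 916 (b) on Febit. miR-499 was near the Affymetrix median with 2.43 (a) and 3.23 (b), and below the Febit median with 936 (a) and 868 (b). miR-133a* and miR-499 were called higher on Affymetrix, but not with the other title (adjusted p = 0.668 and 0.931), where that array placed them at percentiles 88.7 and 84. Of the 8 muscle miRNAs, 2 were thus called higher on Affymetrix and 1, miR-208a, higher on Febit, beside 15.3% and 15.1% of all miRNAs, and none with the other title.

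miR-208a went the other way. Affymetrix gave 2.43 (a) and 2.19 (b), below the array medians of 2.68 and 2.71, while Febit gave 2385 (a) and 1885 (b). It was the single miRNA above percentile 90 on Febit and below the median on Affymetrix in both cultures, and it kept percentile 96.0 on Febit when the array titled day 12 a in the non-VSN values was used. miR-208b, with the same seed, had 2.01 (a) and 1.23 (b) on Affymetrix and 1040 (a) and 936 (b) on Febit, and miR-206 of skeletal muscle was near or below the median on both platforms.

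**Figure D2:**
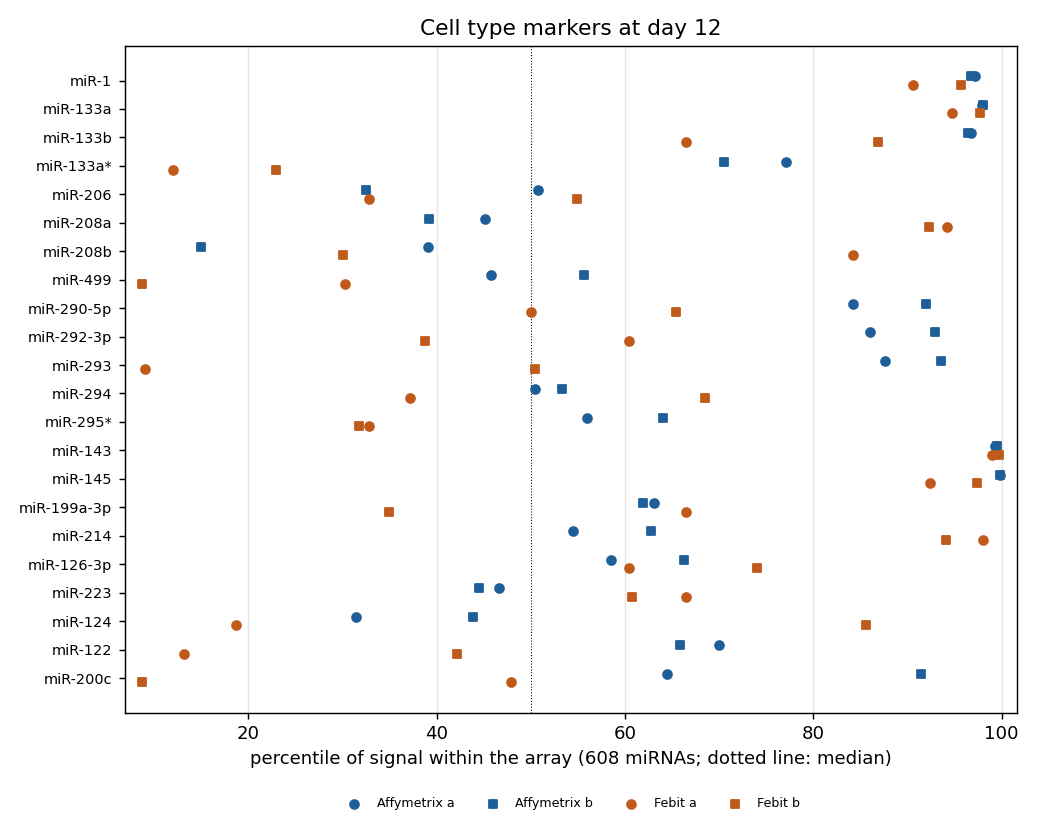
Percentile of signal within the array (x axis, 608 miRNAs, dotted line at the median) of muscle miRNAs and of markers of other cell types at day 12. Blue points are Affymetrix and orange points Febit, with circles for culture a and squares for culture b. miR-1, miR-133a, miR-143 and miR-145 lie above percentile 90 on all 4 arrays. Of the miR-290 cluster, miR-290-5p, miR-292-3p and miR-293 lie high on Affymetrix alone, and the 3 members called higher on Febit are not shown.

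Markers of other cell types were looked at on both platforms. For the miR-290 cluster of ES cells, 4 of 14 members were above percentile 75 on Affymetrix in both cultures and 1 on Febit, beside 22.5% and 14.5% of all 608. miR-293 had 7.34 (a) and 8.44 (b) on Affymetrix and 888 (a) and 984 (b) on Febit, miR-292-3p had 7.05 (a) and 8.39 (b) against 984 (a) and 956 (b), and miR-290-5p had 6.78 (a) and 8.24 (b) against 968 (a) and 1008 (b). In each case Affymetrix was higher in culture b, and Febit was within a few percent of the array median or below it. Of the 14, 4 were called higher on Affymetrix and 3 higher on Febit, beside 15.3% and 15.1% of all tested, and with the other title miR-292-5p alone was called, higher on Affymetrix. None of the 14 had a raw Febit signal over 2 times the array median in both cultures.

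Of the mesenchymal miR-199 and miR-214 list, miR-214 alone was above percentile 75 in both cultures, on Febit. Its Affymetrix values were 3.0 (a) and 3.91 (b), and its raw Febit signals were 4913 (a) and 1965 (b). The lists of endothelial miR-126, of nervous tissue and of liver, gut and pancreas had no member above percentile 75 in both cultures on either platform. The 8 blood miRNAs had 1 such member on Affymetrix and none on Febit. The median percentile of the lists of endothelium, blood and nervous tissue was 41.1, 24 and 22.3 on Affymetrix, beside 49.6 over all 608, and 58.1, 44.1 and 41.1 on Febit, beside 49.7. That of liver, gut and pancreas was 49.6 on Affymetrix and 46 on Febit, and that of the miR-200 family 48.6 and 36. In the miR-200 family of epithelia, miR-200c had 3.88 in culture a and 8.07 in culture b on Affymetrix, the widest gap between cultures among the markers shown, and 964 (a) and 868 (b) on Febit. The part of other cells in these values was not tested. In bulk RNA, fewer cells of a type and less RNA per cell cannot be told apart.

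The range of signal differed between the platforms. On Affymetrix the median VSN value was 2.68 (a) and 2.71 (b) and the maximum 12.75 (a) and 13.18 (b). On Febit the middle 50% of miRNAs lay between raw signals of 928 and 1008 in a and between 920 and 1024 in b, a width of 0.12 and 0.15 on the log2 scale. The median SD between the 8 features of a miRNA was 0.17 in both cultures, wider than that range. Ranks in the middle and lower part of a Febit array therefore rest on signals that differ by less than the features of a single miRNA do. Over 2 times the array median in both cultures stood 37 of the 710 miRNAs, 31 of them on both arrays.

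**Figure D3:**
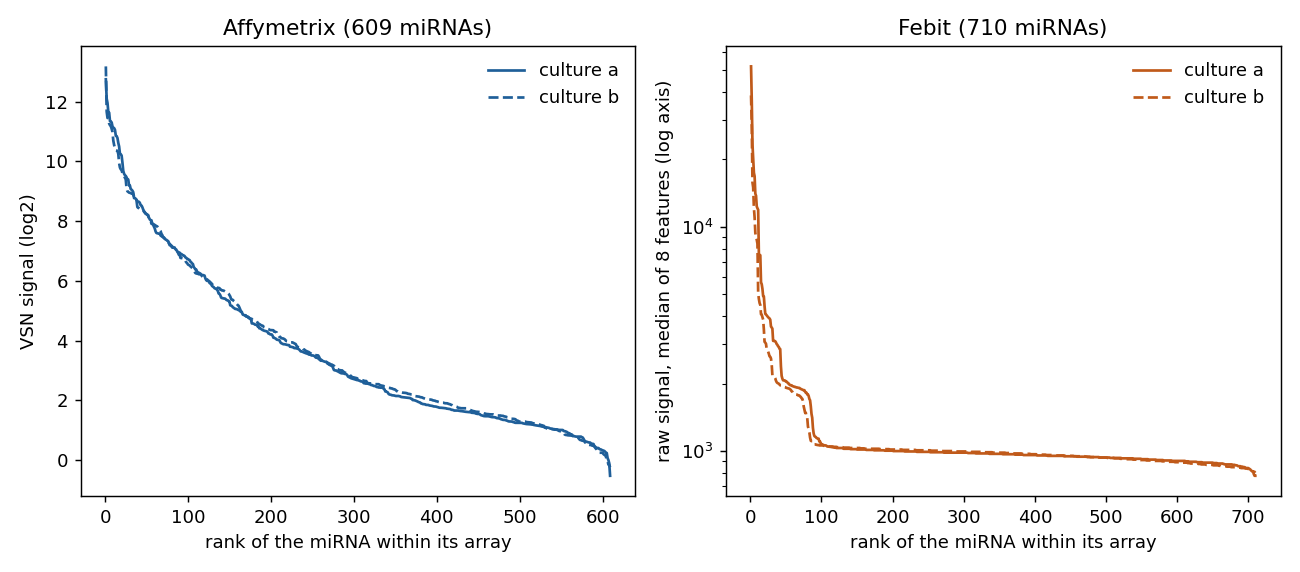
Signal against rank within the array for Affymetrix (left, VSN, log2) and Febit (right, raw median of 8 features, log axis) in culture a (solid) and culture b (dashed). Affymetrix falls gradually over the ranks, and Febit falls steeply and then runs nearly flat close to its medians of 968 and 984.

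Cultures a and b ranked the miRNAs alike on Affymetrix (Spearman correlation 0.907 for VSN and 0.903 for RMA, 609 miRNAs) and less so on Febit (0.480, 710 miRNAs). With the Febit array that the non-VSN values title day 12 a, the latter was 0.081. Between platforms the correlation was 0.239 in culture a, 0.155 in culture b and 0.186 for the mean percentiles of the 608, and 0.326 with the other title. These are correlations across miRNAs, which are not independent replicates. The difference between a and b, read by letter, had a Spearman correlation of -0.009 between platforms across the 608. Whether a letter marks the same RNA on both platforms is not stated in the sources used here. With the letters crossed, the correlation between platforms was 0.258 for Affymetrix b with Febit a and 0.126 for Affymetrix a with Febit b.

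The 31 miRNAs that stood over 2 times the Febit median in both cultures were all in the upper part of the Affymetrix ranking. Their mean Affymetrix percentile ranged from 66.6 to 100 with a median of 92.3, and 16 of them were above percentile 90 in both cultures. The reverse was looser. Of the 51 miRNAs above percentile 90 on Affymetrix in both cultures, 22 were so on Febit, 16 exceeded 2 times the Febit median and 5 were below the Febit median in both cultures.

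**Figure D4:**
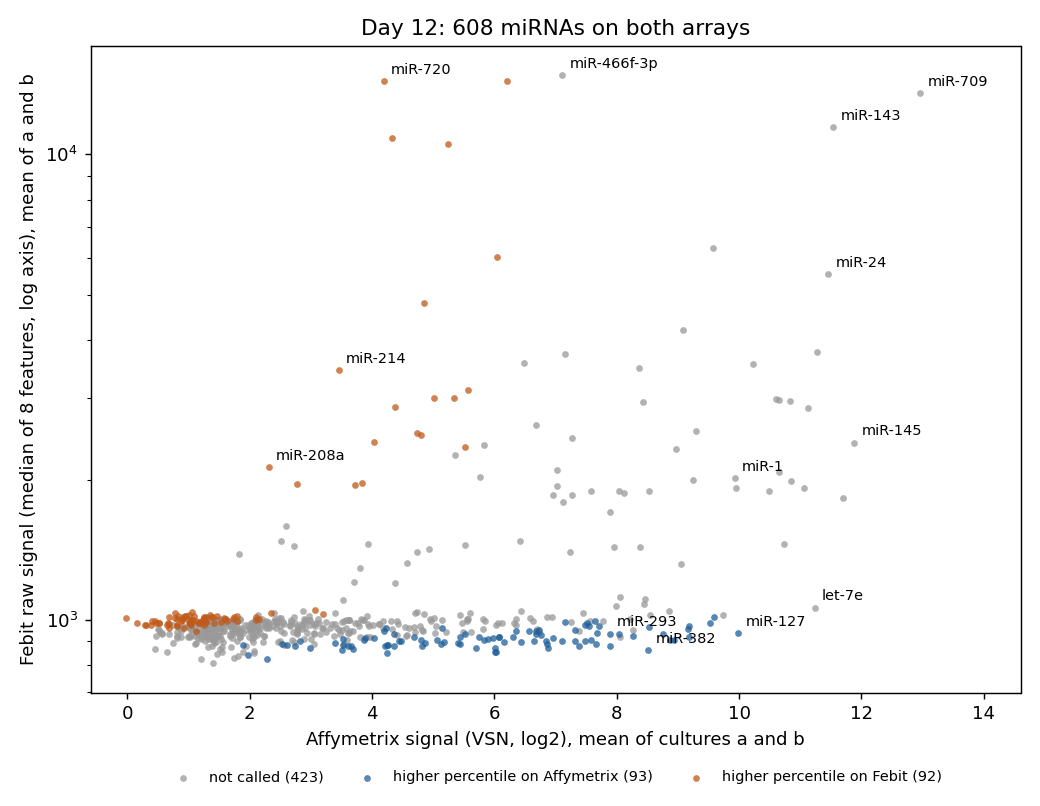
Febit raw signal (y axis, log scale, median of 8 features, mean of cultures a and b) against Affymetrix VSN signal (x axis, log2, mean of a and b) for the 608 miRNAs on both arrays. Blue points were called higher in percentile on Affymetrix (93), orange points higher on Febit (92) and grey points were not called. The blue points all lie in the flat band of Febit signals near 1000, which largely follows from the call, and the highest orange points lie at moderate Affymetrix signal.

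No miRNA called higher on Affymetrix had a raw Febit signal over 1040 in either culture. Such a call needs a lower Febit percentile, and most Febit signals lie near the array median, so this limit largely follows from the call. Of the 93, 53 were above percentile 75 on Affymetrix in both cultures, beside 22.5% of all 608. The call itself raises that share. The 5 above percentile 90 on Affymetrix and below the median on Febit in both cultures were let-7a, miR-127, miR-361, miR-382 and miR-652. With the other title 3 miRNAs met this rule, and none of these 5 was called different.

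miR-382 had 8.65 (a) and 8.38 (b) on Affymetrix and 916 (a) and 808 (b) on Febit. Its percentile was higher on Affymetrix by 82.9 ± 7.82 points (SE, adjusted p = 6.86e-05), the widest gap among the 93. With the other title the adjusted p was 0.225, and that array placed miR-382 at percentile 84.5. miR-127, an imprinted miRNA, had 10.24 (a) and 9.73 (b) against 948 (a) and 928 (b), a difference of 64.9 ± 7.65 points (adjusted p = 0.000244, and 0.0759 with the other title).

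let-7a, of the family that rises in differentiation, had 8.97 (a) and 9.39 (b) on Affymetrix and 888 (a) and 956 (b) on Febit. Its family was uneven on Affymetrix, from miR-98 with 0.33 (a) and -0.01 (b) to let-7e with 11.30 (a) and 11.18 (b). On Febit the mean percentile of its 9 members ran from 23.9 to 70.0, and none was above percentile 75 in both cultures. let-7e had 1144 (a) and 984 (b) there. Of the 9, let-7a was called higher on Affymetrix and miR-98 higher on Febit, shares near those of all miRNAs tested. With the other title let-7a was not called (adjusted p = 0.21), and let-7d alone was called, higher on Affymetrix.

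The miR-17-92 cluster and its paralogues, which are active in dividing cells, had 11 of 14 members above percentile 75 on Affymetrix and 2 on Febit, beside 22.5% and 14.5% of all 608. Of the 14, 4 were called higher on Affymetrix and none higher on Febit, beside 15.3% and 15.1%, and none was called with the other title. Their median difference was 30.9 percentile points, beside -2.43 over all 608. miR-17 had 9.20 (a) and 8.90 (b) on Affymetrix, whereas on Febit it was at the array level in a (928) and over it in b (1712). In a separate family, miR-15b, with 8.21 (a) and 8.03 (b) against 1788 (a) and 1957 (b), and miR-16, with 9.19 (a) and 8.98 (b) against 3929 (a) and 4481 (b), had nearly the same percentile on both platforms.

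Among the 92 called higher on Febit, 10 stood over 2 times the Febit median in both cultures, and 66 were above percentile 75 on neither platform. miR-720, a sequence later regarded as a fragment of a transfer RNA, had 13755 (a) and 14972 (b) on Febit and 4.03 (a) and 4.35 (b) on Affymetrix. Its percentile was higher on Febit by 33.2 ± 5.79 points (SE, adjusted p = 0.00199), and the call held with the other title (adjusted p = 0.0296). miR-208a differed by 51.1 ± 14.0 points (adjusted p = 0.0196, and 0.0846 with the other title), and miR-214 by 37.4 ± 8.06 points (adjusted p = 0.00591, and 0.153 with the other title).

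The families of the Sfmbt2 cluster, a large repeat of miRNA genes in an intron of Sfmbt2, held several of the brightest miRNAs of the Febit array. The 50 miRNAs counted here were taken by the names miR-297, miR-466, miR-467 and miR-669 and not by position in the genome. Of the 50, 19 were above percentile 75 on Febit in both cultures and 4 on Affymetrix, beside 88 and 137 of all 608. In the platform test 12 of the 50 were called higher on Febit and 2 higher on Affymetrix, beside 15.1% and 15.3% of all tested, and with the other title miR-297b-5p alone was called, higher on Febit. They made up 9 of the 31 miRNAs over 2 times the Febit median. miR-466f-3p had 17428 (a) and 12147 (b) on Febit and 7.34 (a) and 6.88 (b) on Affymetrix. miR-466i had 12095 (a) and 8946 (b) against 5.52 (a) and 4.97 (b). Members of these families are near copies of each other, so their single values are uncertain.

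miR-467f, with a Febit signal of 12331 (a) and 9410 (b) and Affymetrix values of 4.21 (a) and 4.45 (b), was higher on Febit by 31.5 ± 8.44 points (adjusted p = 0.0183). miR-574-5p had 19937 (a) and 8758 (b) on Febit and 5.81 (a) and 6.60 (b) on Affymetrix, a difference of 18.2 ± 5.78 points (adjusted p = 0.0358). miR-1187 had 7466 (a) and 4573 (b) against 6.00 (a) and 6.09 (b). With the other title the adjusted p of these was 0.087, 0.161 and 0.173, although each kept a percentile over 95 on that array.

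GC content went with the percentile on Affymetrix, and on Febit no such relation was seen. Among the 388 miRNAs with a sequence, the Spearman correlation of GC content with the percentile was 0.343 on Affymetrix and -0.045 on Febit. Of the 710 miRNAs of the Febit array, 608 in a and 622 in b lay under 1.1 times the array median. The Febit correlation therefore rests mostly on ranks within the flat signal and does not show that composition has no part there. The median Affymetrix percentile was 25 for the 87 miRNAs of 40% GC or less, 52.8 for the 172 of over 40% to 50% and 63.0 for the 129 of over 50%, while Febit gave 49.9, 50 and 45.9. Over the 388, 68 were called higher on Affymetrix and 59 higher on Febit. Of the 87 it was 6 and 27, of the 172 it was 29 and 19, and of the 129 it was 33 and 13. With the other title the counts were 0 and 1 of the 87, 5 and 1 of the 172, and 1 and 0 of the 129. The part of base composition in the differences was not tested. By the last base of the miRNA, those that end in G had 23 calls higher on Affymetrix and 5 higher on Febit among 89. Those that end in A had 8 and 17 among 94, in C 12 and 13 among 70, and in U 25 and 24 among 135. With the other title those that end in G or A had no call, and the counts were 1 and 0 for C and 5 and 2 for U.

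**Figure D5:**
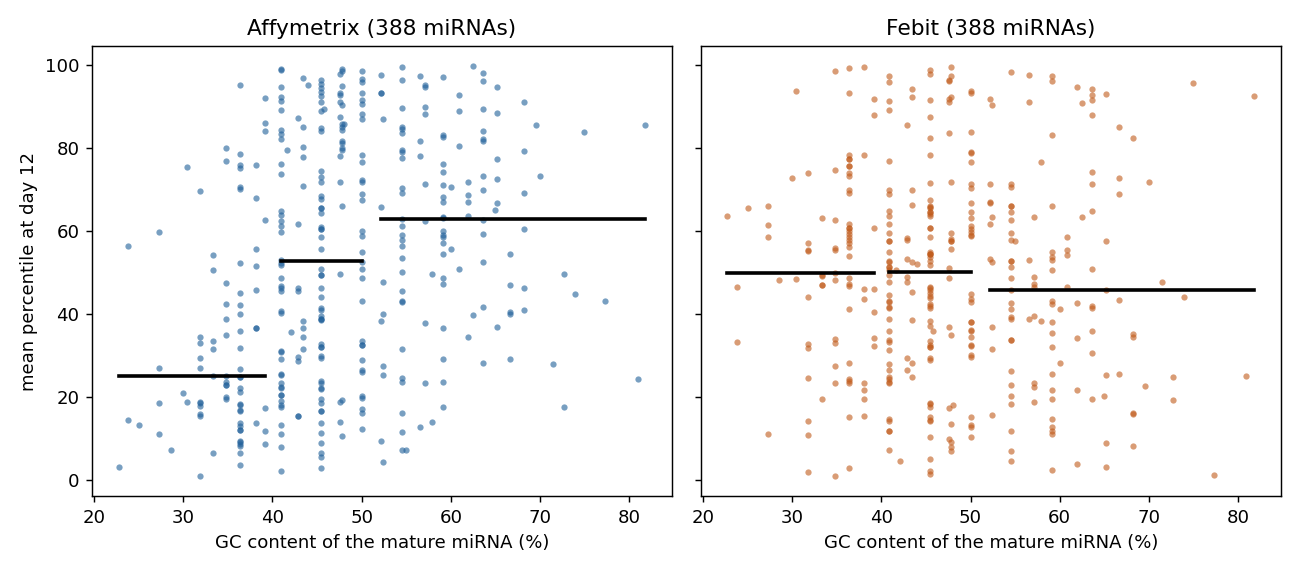
Mean percentile at day 12 (y axis) against the GC content of the mature miRNA (x axis, %) for the 388 miRNAs with a sequence, on Affymetrix (left) and Febit (right). Black bars are the medians of miRNAs with up to 40%, over 40% to 50% and over 50% GC, which were 25, 52.8 and 63.0 on Affymetrix and 49.9, 50 and 45.9 on Febit.

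Of the miRNAs that only the Febit array holds, 6 of 102 exceeded 2 times the array median in both cultures, and these 6 were among the 20 brightest of the array in each culture. miR-1937a was the brightest of all 710, with 51912 (a) and 38529 (b), and its single features reached 64647 (a) and 64639 (b). miR-1937b followed with 36617 (a) and 28011 (b). The other 4 were miR-2142 with 14064 (a) and 15768 (b), miR-1895 with 16808 (a) and 8410 (b), miR-1937c with 4889 (a) and 4769 (b), and miR-2137 with 5289 (a) and 4077 (b). miR-699, on the Affymetrix array only, ranked at 243 (a) and 203 (b) of 609, with 3.58 (a) and 4.35 (b).

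Some differences between the cultures had the same direction on both platforms and others did not. On Febit, 10 of the 608 miRNAs had over 2 times the raw signal in a than in b, and 0 had over 2 times the signal in b. Raw signals include the background, and on the Febit VSN scale 111 were over 2-fold higher in a and 105 over 2-fold higher in b. On the Affymetrix VSN scale it was 46 and 76. Near the background the Febit VSN scale widens small raw differences, so its counts include miRNAs whose raw signals are close. miR-382, with raw signals of 916 (a) and 808 (b), differed by 1.69 on that log2 scale. Among the miRNAs above the median on both platforms in both cultures, miR-423-5p was 2.76-fold brighter in a on Febit. Affymetrix gave it a difference of -0.01 on the log2 scale. miR-210, known from hypoxia, was 2.32-fold brighter in a on Febit and higher in a by 0.58 on Affymetrix. miR-466e-3p, miR-466b-3p and miR-466b-3-3p were lower in a on Affymetrix by 1.41, 1.49 and 1.5 on the log2 scale, and their Febit ratios of a over b were 0.665, 0.958 and 0.976. With 1 array per culture and platform these differences have no test.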

How the data were processed

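Mouse miRNA arrays of 2 platforms were read. For Affymetrix the authors deposited log2 values after RMA and log2 values after VSN, a transform that stabilizes the variance. For Febit the authors deposited log2 values after VSN and the raw intensity of 8 features per miRNA, of which the median was taken. The submitters' processing notes name RMA and affy without versions. A second set of Febit log2 values was read in 3 columns only, for titles, and its other 5 columns were not used here.

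Records were grouped by title. Percentiles were fitted in limma 3.58.1 (R 4.3.3) with a mean per platform and day over 16 VSN arrays, without a block. Adjusted p-values are by the Benjamini-Hochberg method for all 608 miRNAs. The fit was run on simulated data in which both platforms had the same noise and no flat background. It therefore cannot show how the fit handles Febit ranks near the array median. A first threshold of that run was not met, and recovery was then scored by the true percentile shift. P-values measure the spread between 2 cultures a day. Members and lists were chosen with earlier results of these data known. miRNAs named singly were drawn from the 20 brightest per platform, the 15 of largest difference each way and the 10 brightest on Febit only. List members, the 5 of largest culture difference each way and those the study's text names were also drawn on. Not all of these are printed. Other miRNAs that explain a count were named after their values were seen. An old name was matched to a RefSeq arm where the arm was known, and 220 miRNAs were left without a sequence.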

Additional observations from a re-analysis of the deposited data

How the results depend on the processing

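RMA values and percentiles over every miRNA of the array gave counts close to those reported. Raw Febit signal ranks the miRNAs as the VSN values do, so its counts had to be the same and show nothing about stability. With the RNA sample as a replicate block 155 miRNAs were called, in place of 185. Letters shared across platforms did not deviate together (Spearman correlations of 0.042, 0.011, 0.004 and 0.070 at days 0, 12, 19 and 26), and the sources used here do not say whether a letter marks the same RNA on both. Without 1 culture the platform test called 94 to 99 (53 to 68 higher on Affymetrix, 31 to 41 higher on Febit), and with only the day 12 arrays 98, of which 34 were higher on Febit. A lone array is then assumed to vary like the other groups. miRNAs above percentile 90 on Affymetrix and below the median on Febit numbered 11 to 18 with 1 culture, since 1 array had to meet the rule, 1 at percentile 95 and 35 at percentile 75. The reverse count was 3 with either culture alone, 0 at percentile 95 and 9 at percentile 75. The 20 brightest shared 7 and the 100 brightest 45. Among miRNAs above the median on 1 or both platforms the correlation between platforms was 0.011, in the upper part of the Febit array the correlation between cultures was 0.315, and for miRNAs above the median on both platforms that of the culture difference was -0.143. The use of the Febit title of the non-VSN values was chosen after seeing the data. It gave 12 calls (8 and 4), 3 miRNAs bright on Affymetrix and below the median on Febit, and correlations of 0.326 between platforms, 0.081 between Febit cultures and 0.066 for the culture difference. Which title is right could not be settled from the values. The cause of these changes was not tested. On Febit the flat signal near the array median limits the ranking.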
